A study of Mus musculus with 4 samples.

Results

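The 10 genes described here were grouped around the Notch signal inside the cell. They include the nuclear factor gene Rbpj and the coactivator genes Maml1, Maml2 and Maml3. The others are the Hes and Hey family genes Hes1, Hes6, Hey1, Hey2 and Heyl, and Numb, an inhibitor of the receptors. All 10 were taken by name from the 34614 protein-coding and lncRNA genes of the RefSeq table for GRCm38 (mm10). A region was assigned to a gene when it shared 1 bp or more with the gene or the 2000 bp on either side. Regions are those that the authors listed as higher in DNA from control cultures than in DNA from cultures of Uhrf1-deficient satellite cells. Of the 39231 listed regions, 36 lay over these genes, and 6 of the 10 genes had at least 1. Over all genes the share with a region was 38.2%, and over protein-coding genes, which all 10 members are, it was 45.2%.

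Satellite cells, the stem cells of skeletal muscle, came from hindlimb muscles of 9-week-old mice and were cultured for 3 days before MBD2-based separation of methylated and non-methylated DNA. One group of mice received tamoxifen in corn oil on 5 days to induce Cre recombination and the other is labelled oil. Each treatment has 1 library of methylated and 1 of non-methylated DNA, in 4 groups of 1 sample. The strain, the Cre driver and the Uhrf1 allele are not given in the sources used here, nor is the number of mice behind a library. The list's header names its inputs only as oil and tamoxifen. They are read here as the methylated DNA, and what follows about captured DNA rests on that reading. With 1 library per treatment, deletion of Uhrf1, tamoxifen itself, the animals, the cultures and the capture cannot be told apart, and no test across genes was made.

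When a ligand on a neighbouring cell binds a Notch receptor, the receptor is cut and its intracellular part moves to the nucleus. There it joins the DNA-binding protein Rbpj and a Mastermind-like (Maml) coactivator, and the complex switches on genes of the Hes and Hey families, which encode repressors of the basic helix-loop-helix class. In muscle this pathway keeps satellite cells quiescent and undifferentiated, and Hes1, Hey1 and Heyl are among its targets in these cells. Numb binds the receptor and directs it away from signalling. Uhrf1 brings the methyltransferase Dnmt1 to newly copied DNA, so that methylation is passed on when a cell divides.

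Promoter windows are shown first because none of those listed for these genes held a region. RefSeq (GRCm38.p6) lists 12 windows, each from 250 bases before to 50 bases after a transcription start, for 7 of the genes. Hes1, Hey1 and Heyl have no entry. Among all 32851 windows, 1.28% overlapped a region, so 0 of 12 is near that background and no result about these genes. MBD2 binds methylated CpG, a C followed by a G, and each such pair is in capitals in the windows of Maml3, Maml2 and Hes6, given 5′ to 3′. They are shown because Maml3 and Maml2, of nearly equal length, differ most in their number of regions, and because the Hes6 start is the only listed start of a member with a region within 2000 bp.
Maml3 (chr3:52104957-52105256, minus strand): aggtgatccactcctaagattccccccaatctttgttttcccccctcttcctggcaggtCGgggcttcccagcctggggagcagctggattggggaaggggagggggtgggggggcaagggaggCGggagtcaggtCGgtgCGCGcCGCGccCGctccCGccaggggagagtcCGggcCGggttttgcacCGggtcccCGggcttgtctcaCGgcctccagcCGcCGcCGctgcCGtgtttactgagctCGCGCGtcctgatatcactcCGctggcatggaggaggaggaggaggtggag
Maml2 (chr9:13297708-13298007, plus strand): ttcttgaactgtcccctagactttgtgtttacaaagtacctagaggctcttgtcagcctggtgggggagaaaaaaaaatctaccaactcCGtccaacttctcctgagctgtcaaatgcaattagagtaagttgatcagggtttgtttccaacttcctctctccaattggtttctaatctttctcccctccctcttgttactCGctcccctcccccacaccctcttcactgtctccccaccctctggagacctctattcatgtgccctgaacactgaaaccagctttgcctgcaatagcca
Hes6 (chr1:91413989-91414288, minus strand): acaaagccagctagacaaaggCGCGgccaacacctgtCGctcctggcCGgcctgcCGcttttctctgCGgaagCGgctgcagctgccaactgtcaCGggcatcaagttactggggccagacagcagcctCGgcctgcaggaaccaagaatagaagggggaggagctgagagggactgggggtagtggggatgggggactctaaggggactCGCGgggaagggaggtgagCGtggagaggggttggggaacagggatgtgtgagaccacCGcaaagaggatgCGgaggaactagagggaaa

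The Maml3 window held 22 CpG pairs and the first Maml2 window 2, while the median over all windows was 7 (quartiles 3 and 20). That first listed Maml2 start, 13297958, itself lies inside the gene body, which begins at 13296561. A later Maml2 start, further inside the gene, had 7 pairs. The Maml1 window held 24. The 2 windows of Rbpj held 26 and 28 pairs and the window of Hey2 held 29, more than 87.1% of all windows. Hes6 had 14 pairs at the start shown and 21 at its other start. Numb had 13 pairs at its outermost start and 3 and 6 at the other starts, which lie inside the gene. The windows of Rbpj, Hey2, Maml1 and Maml3 and the inner window of Hes6 were thus at or above the upper quartile for CpG pairs, and no region was listed over them.

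**Figure D1:**
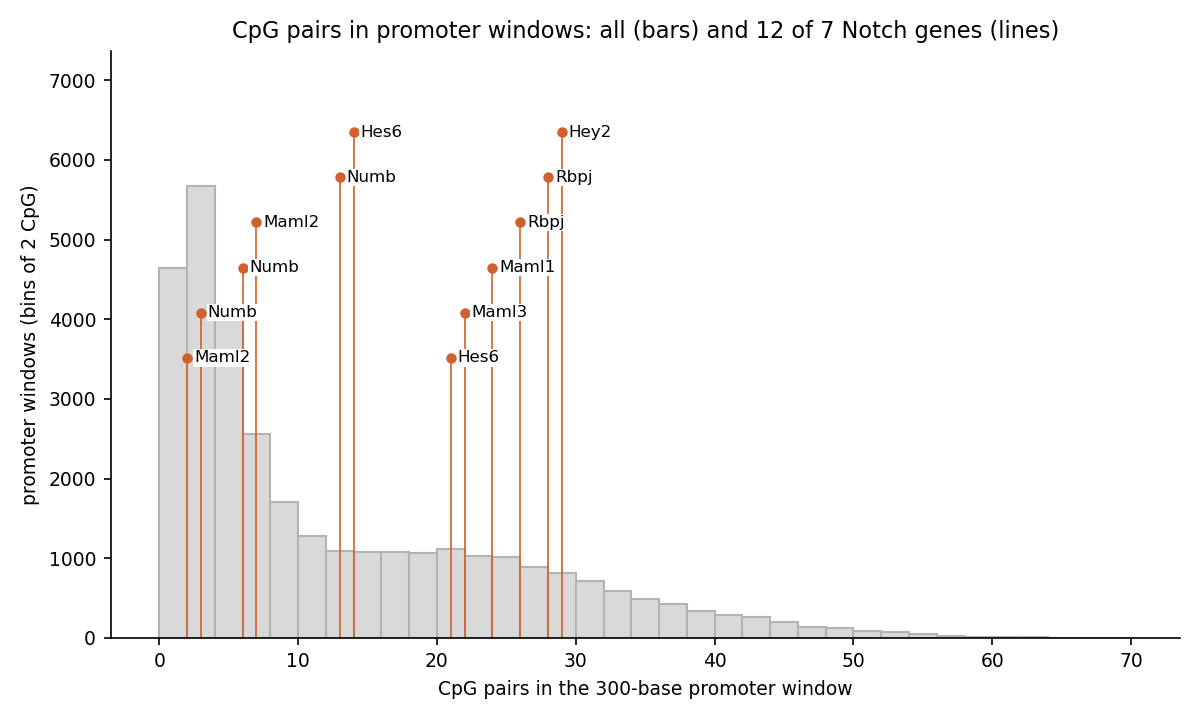
CpG pairs in 300-base promoter windows (x axis) of all 32851 windows (bars, number of windows in bins of 2 CpG, y axis) with the 12 windows of 7 Notch genes as lines at their own counts, whose heights serve only to separate the labels. Windows of Rbpj, Hey2, Maml1 and Maml3 lie at 22 to 29 pairs, and the first window of Maml2 lies at 2.

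The letters TGGGAA, the core that Rbpj binds, were searched on both strands (TTCCCA on the other). They were present in 5 of the 12 windows, of 4 genes, and in 25.6% of all windows. The windows of Rbpj and Hey2 are shown because each held 2 matches, in capitals here.
Rbpj (chr5:53590096-53590395, plus strand): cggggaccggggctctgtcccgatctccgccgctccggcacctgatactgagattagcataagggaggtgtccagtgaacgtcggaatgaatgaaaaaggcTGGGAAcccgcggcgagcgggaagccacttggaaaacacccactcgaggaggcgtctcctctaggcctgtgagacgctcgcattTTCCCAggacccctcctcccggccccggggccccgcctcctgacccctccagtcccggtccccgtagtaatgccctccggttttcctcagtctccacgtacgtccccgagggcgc
Hey2 (chr10:30842734-30843033, minus strand): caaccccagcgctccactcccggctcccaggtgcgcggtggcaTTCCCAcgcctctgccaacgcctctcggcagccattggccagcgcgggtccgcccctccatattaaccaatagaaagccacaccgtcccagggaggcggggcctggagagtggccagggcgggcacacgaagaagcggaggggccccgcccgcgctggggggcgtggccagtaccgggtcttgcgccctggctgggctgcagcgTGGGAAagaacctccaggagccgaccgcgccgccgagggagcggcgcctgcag
In Hey2 the matches began 207 bases and 3 bases before the start. In Rbpj they began 149 and 65 bases before it. The other windows with a match were the other Rbpj window, which overlaps the first and shares a match with it, the Maml3 window and the inner Maml2 window. A match is a description of the sequence, and no region lay over any of these windows.

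The mice of the tamoxifen group were treated to delete Uhrf1, whose own body carried 4 regions with folds of 4.31 to 10.2, and a loss of DNA copies there cannot be told apart from less methylation. With duplicates removed, 19534328 of 35216008 tags were left in oil and 25614791 of 36519772 in tamoxifen. The redundant rate was thus higher in the oil library, 0.45 against 0.3. A fold is the authors' value at a region's summit, their oil pileup plus 1 over the scaled tamoxifen value plus 1. Tags are sequenced fragments over the summit, unscaled unless said otherwise, and the tamoxifen tags were worked out from the pileup and the fold. Limits are exact Clopper-Pearson 95% limits on the ratio of oil tags to tamoxifen tags scaled by 0.763. They cover counting error only. These are DNA measurements, so the labelled cell type was not checked against marker expression.

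Over the 36 regions the captured signal was several times lower in the tamoxifen library. Oil tags ranged from 23 to 165 (median 63.5) and tamoxifen tags from 4 to 45 (median 17.5). After scaling, the tamoxifen signal was 22.4% of that in oil at the median and at most 34.9%, against 20.1% over all listed regions. The median fold was 4.21 (lowest 2.73, highest 8.73), and the median of the whole list was 4.61 (quartiles 3.67 and 5.87). A fold of 4 or more was found in 21 regions (58.3%), while 66.1% of the whole list reached it. None of the 36 reached a fold of 10. Every listed region had to pass the authors' q limit, so these folds describe the listed sites and not the genes as a whole.

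**Figure D2:**
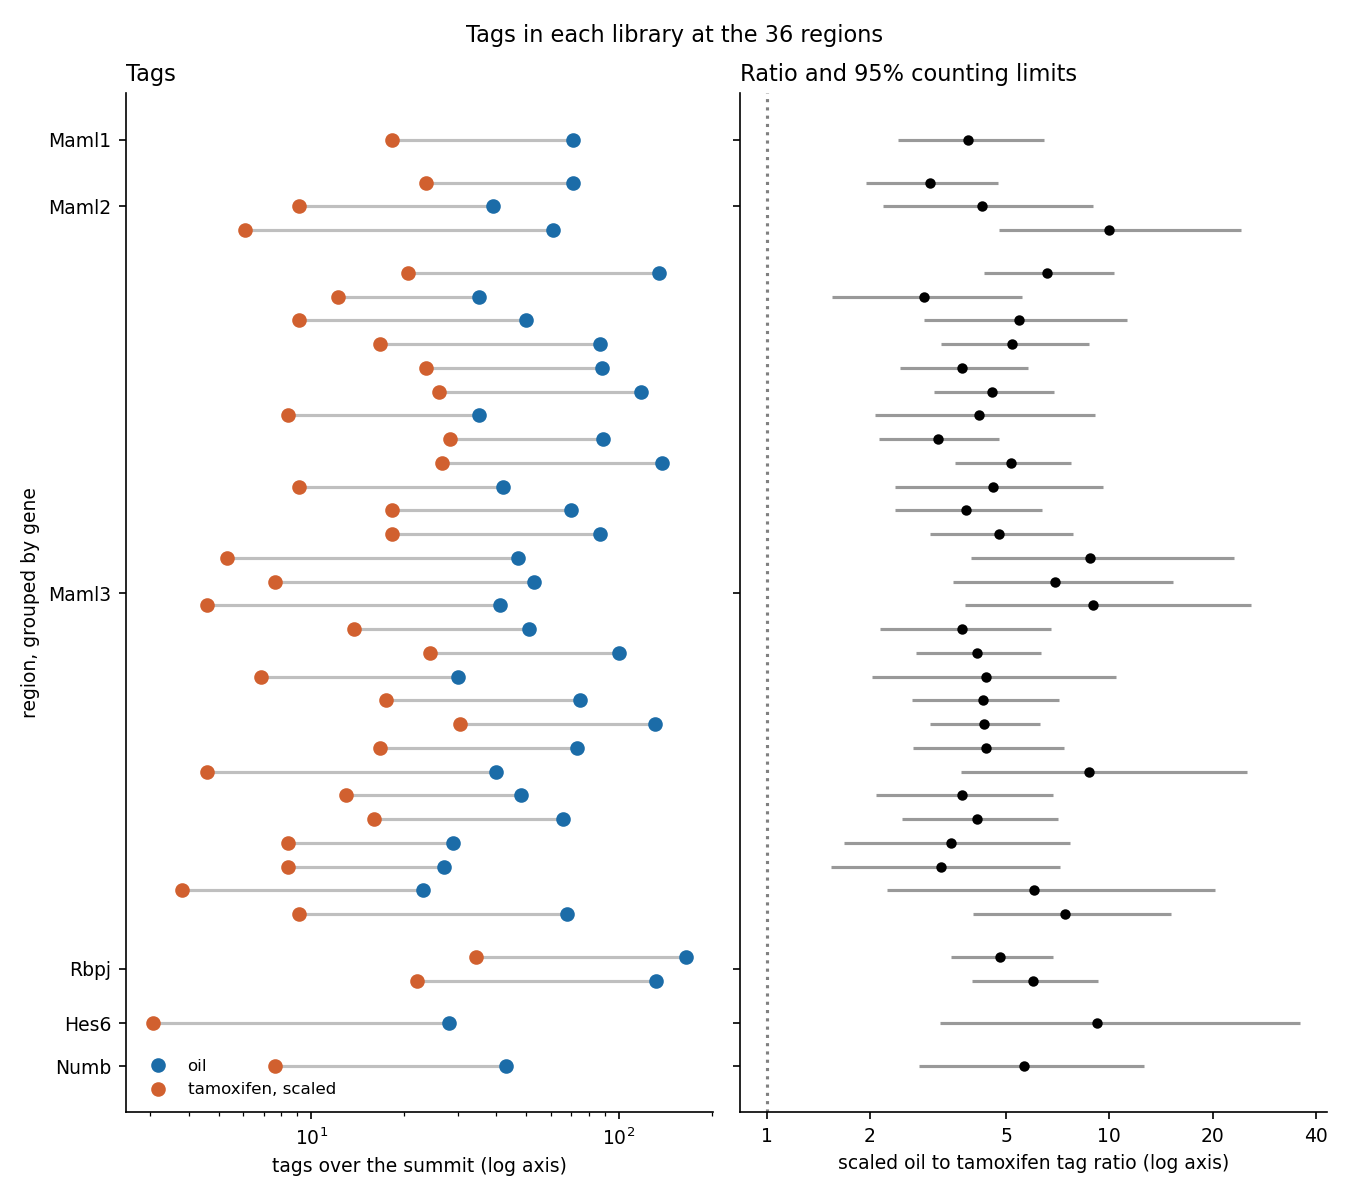
Left, tags over the summit (log axis) of each of the 36 regions, grouped by gene along the y axis and ordered by position, in the oil library (blue) and in the tamoxifen library after scaling (orange). Right, the scaled oil to tamoxifen tag ratio (log axis) with exact 95% counting limits as bars and a dotted line at 1. Every bar lies above 1, which listing by the authors' q limit favours, and the bar of Hes6 is the widest.

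The coactivator gene Maml3 held 28 of the 36 regions (77.8%). It spans chromosome 3 from 51687320 to 52105319, 418.0 kb on the minus strand, so its start lies at the higher coordinate. Maml2, a paralog of nearly the same length, held 3 regions over 413.0 kb of chromosome 9 (13296561 to 13709533, plus strand). Maml1, the shortest of the trio at 37.5 kb (chromosome 11, 50255634 to 50293131, minus strand), held 1. All 3 proteins bind the complex of Rbpj and the cut receptor and recruit acetyltransferases to it.

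Region counts rise with gene length, so each gene was set beside protein-coding genes of 0.8 to 1.25 times its length. Of the 257 such genes around Maml3, which include Maml2 and Maml3, 90.7% had a region and the median was 3 regions (quartiles 2 and 6). Only 2 genes besides Maml3 had 28 or more. The density was 6.70 regions per 100 kb in Maml3 and 0.73 in Maml2, and the median of the 257 genes was 0.78. For Maml2 the median was also 3 regions (quartiles 1 and 6). Its count was thus at the middle for its length, and that of Maml3 was near the top. Whether CpG density along these genes differs was not tested, as no genome sequence was used here.

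**Figure D3:**
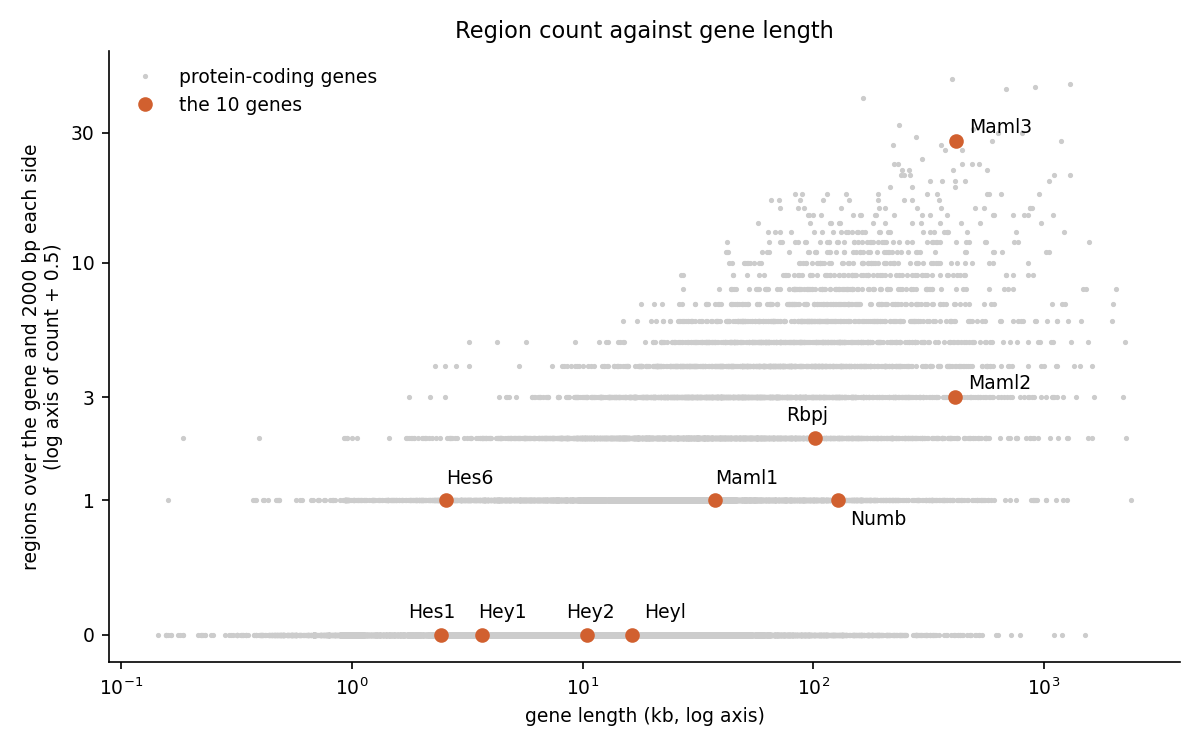
Regions over each gene and 2000 bp on both sides (y axis, log axis of the count plus 0.5) against gene length in kb (log axis) for all protein-coding genes (grey) and the 10 Notch genes (orange, named). Maml3 and Maml2 stand at the same length with 28 and 3 regions, and Hes1, Hey1, Hey2 and Heyl stand at 0.

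Within Maml3 the regions were spread over the whole gene, with 15 on the start's side of its midpoint and 13 on the other. They covered 1.91% of its length. The region closest to the start (52099184 to 52099420) ended 5.59 kb downstream of it, with 68 tags in oil against 12 in tamoxifen and a fold of 6.80 (limits 3.99 to 15.1). Its neighbour, from 52097854, had the fewest oil tags of all 28, 23 against 5 tamoxifen tags (fold 4.99). At the other end, the region from 51689255 to 51689859 lay 1935 bp inside the gene's 3′ end. Oil had 135 tags there against 27 in tamoxifen (fold 6.30, limits 4.31 to 10.3), and at 605 bp it was wider than 98.1% of all listed regions.

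The highest folds in Maml3 were at regions of modest coverage. The highest, 7.57, was at 51874715 to 51875101, where 47 oil tags stood against 7 tamoxifen tags (limits 3.95 to 23.1). It was followed by 7.53 from 51953143 (41 against 6 tags, width 486 bp) and 7.35 from 52021789 (40 against 6). The most oil tags, 138, were at 51848930 to 51849243, against 35 in tamoxifen (fold 5.02, limits 3.55 to 7.72). The 5 regions with 100 or more oil tags had folds of 3.98 to 6.30 and 27 to 40 tamoxifen tags. The lowest fold, 2.73, was at 51694235 to 51694476, with 35 tags against 16 (limits 1.55 to 5.55). In all, 12 of the 28 regions had folds under 4, 13 had folds from 4 to under 7, and 3 had 7 or more. The limits of all 28 regions share the range from 4.31 to 4.76. Such overlap does not show that the regions are alike, and differences between them were not tested.

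With regions 5000 bp or less apart joined, 17 of the 28 fell into 7 groups and 11 stood alone. The group with most regions held 4, over 6.92 kb from 51848930 to 51855848, with folds of 3.68 to 5.02. Another 2 groups, of 2 and 3 regions, lay between 51951978 and 51963939. In the first of them the folds were 6.26 and 7.53, and in the next they ran from 3.53 to 3.98. The longest stretch with no listed region was 76.9 kb, and it separated the highest of all folds in the gene, at 51874715, from the group that begins at 51951978. Beyond the gene, the nearest listed regions were 12.8 kb from its 3′ end (7.16-fold) and 19.6 kb from its 5′ end (5.33-fold). The RefSeq table gives gene ends but no exons, so regions were not split into exonic and intronic.

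**Figure D4:**
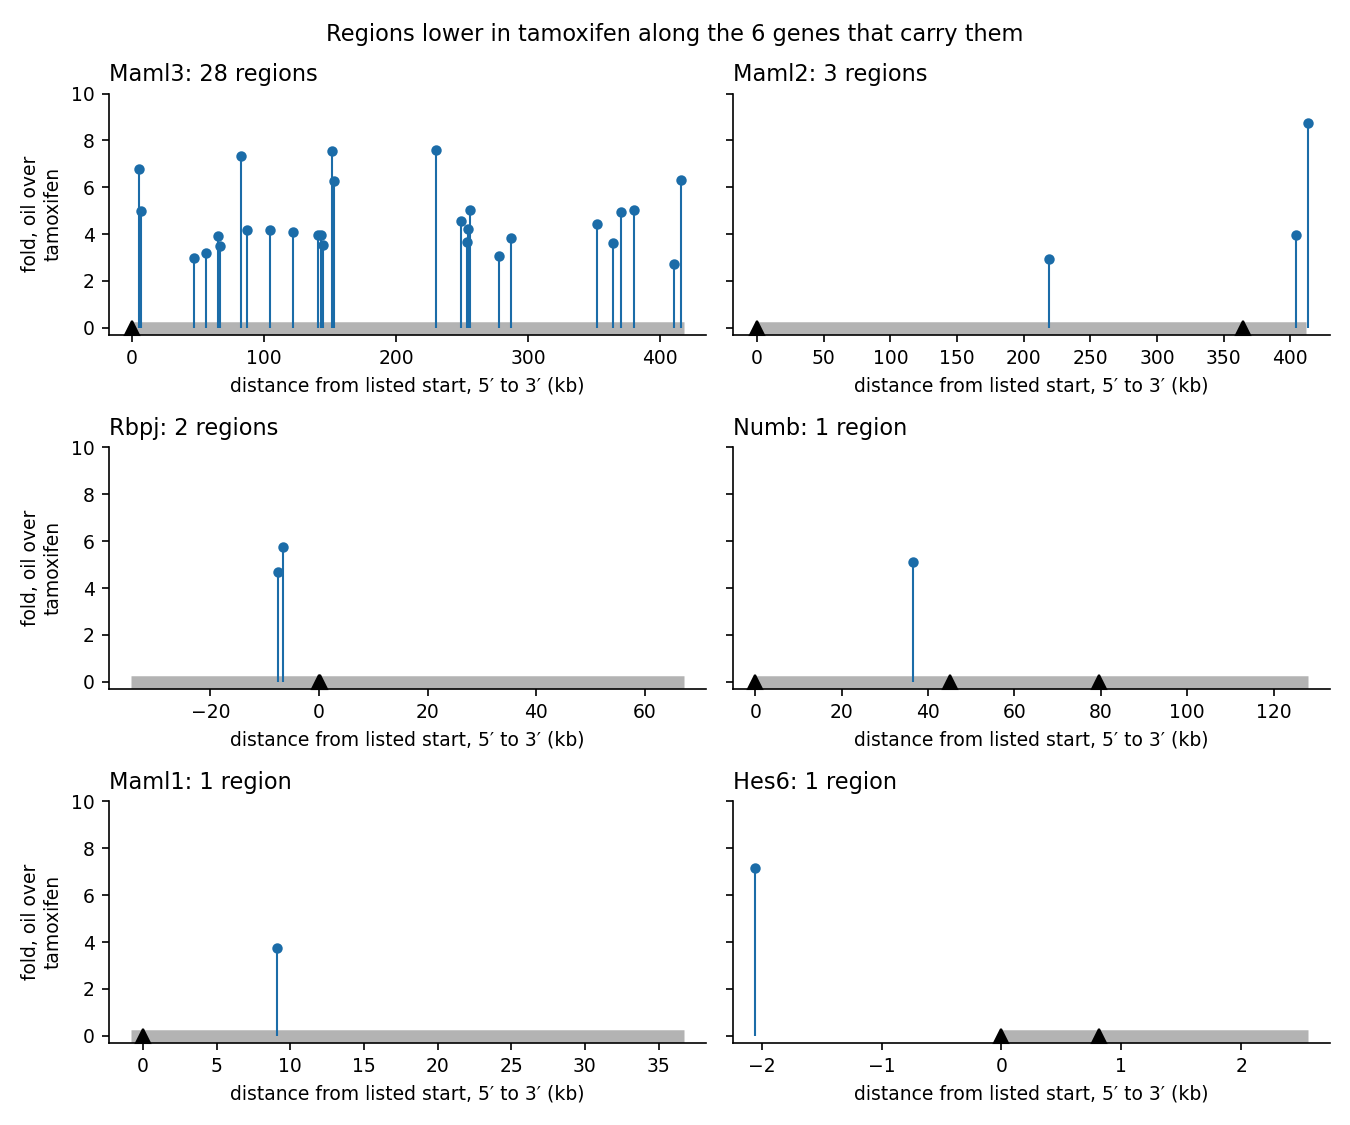
Fold at each region (dots on stems, y axis) against its distance in kb from the listed start, read 5′ to 3′ (x axis, a scale of its own in each panel), for the 6 genes with regions. Grey bars are gene bodies and triangles the starts listed by RefSeq. Maml3 regions run along the whole gene, the strongest region of Maml2 lies past its 3′ end, and those of Rbpj and Hes6 lie before the listed starts.

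In Maml2, 2 of the 3 regions lay near the 3′ end. The strongest, from 13710946 to 13711213, lay 1413 bp beyond the annotated end of the gene and outside any gene of the table. The count was 61 tags in oil against 8 in tamoxifen. Its fold of 8.73 (limits 4.77 to 24.2) was the highest of all 36 and above 95.7% of the whole list. With the gene body alone this region is not counted, and the highest fold of Maml2 is 3.94. A region from 13702034 lay 7.29 kb inside that end, with 39 tags against 12 (fold 3.94, limits 2.19 to 8.94). The third, from 13516493 to 13516712 in the middle of the gene, had 71 tags against 31 and a fold of 2.92 (limits 1.94 to 4.74). The limits of this region end at 4.74 and those of the one past the end begin at 4.77. These 2 regions have the lowest and highest folds of the gene, and the difference between them was not tested. To the left of the gene, on the side of its first start, the nearest listed region was 178.4 kb away.

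Maml1 had its single region, 50283096 to 50283412, 8.92 kb downstream of its start. Tags numbered 71 in oil and 24 in tamoxifen. The fold was 3.73 (limits 2.41 to 6.45), which exceeded 26.6% of the list. Among 2288 protein-coding genes of like length, 60.4% had 1 or more regions. Its fold was the lowest among the strongest regions of the 6 genes.

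Rbpj, the DNA-binding partner of all Notch receptors, carried a pair of wide and well covered regions. The gene runs from 53555779 to 53657445 on chromosome 5, on the plus strand. The first region, 53582552 to 53583138, had 165 oil tags, the most of the 36, against 45 in tamoxifen (fold 4.70, limits 3.44 to 6.84). The next, 53583382 to 53584190, began 244 bp further on and had 132 tags against 29 (fold 5.75, limits 3.97 to 9.26). At 587 and 809 bp they were wider than 97.8% and 99.6% of the list. In oil tags they exceeded 97.0% and 92.7% of it. The limits of both overlap, and the difference between their folds was not tested.

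Both Rbpj regions lay inside the annotated gene and before both listed starts, of which the nearest was 6.16 kb from the closer region. The gene body begins 34.6 kb before the first listed start. The promoter window printed above thus lies downstream of these regions, and nothing was listed over it. Over the whole gene, 2 regions is the median for the 1277 protein-coding genes of like length (quartiles 1 and 4). The rest of the gene downstream of those starts had none.

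Of the Hes and Hey genes among the members, only Hes6 had a region. Hes6 encodes a Hes family member that promotes differentiation and opposes Hes1. It is a short gene, 2556 bp on the minus strand of chromosome 1 (91411483 to 91414038). The region, 91415985 to 91416197, lay outside the gene, 1947 bp before the start whose window is printed above. Oil had 28 tags there, more than only 9.60% of the list, and tamoxifen 4. The fold was 7.16, and the ratio of oil to scaled tamoxifen tags was 9.18 (limits 3.21 to 36.01). Of genes with a listed start, 9.14% had a region within 2000 bp of it, and 1 of the 7 members with a listed start did.

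The same region overlaps Per2, a gene of the circadian clock that spans 91415977 to 91459351. The nearer end of Per2 lies 1939 bp from Hes6. The region starts 8 bp inside that end of Per2, which holds 3 regions in all. It can therefore be counted for either gene. With the midpoint rule, or with the gene body alone, Hes6 had no region, and 5 of the 10 genes had any. Among 947 protein-coding genes of like length, 18.6% had a region.

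Hes1, Hey1, Hey2 and Heyl had no listed region. Hes1 (chromosome 16, 30065357 to 30067796), the best known Notch target and a repressor of Myod1 expression, is 2.44 kb long, and 18.9% of 910 genes of like length had a region. Its surroundings did hold regions. The nearest lay 7.46 kb to its right (55 tags in oil against 10, fold 6.49) and 12.1 kb to its left (34 against 6, fold 6.28), and 8 lay within 100 kb. Heyl (chromosome 4, 123233556 to 123249870, 16.3 kb) also had them close by, 8.18 kb to the right (52 against 18 tags, fold 3.60) and 8.31 kb to the left (24 against 5, fold 5.19). Within 100 kb of Heyl there were 13 regions. Of 2612 genes of its length, 45.6% had at least 1.

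Around Hey1 and Hey2 fewer regions were listed than around Hes1 and Heyl. The median protein-coding gene had 5 regions over itself and 100 kb on both sides (quartiles 2 and 9), and the counts were 0 for Hey1 and 2 for Hey2, beside the 8 of Hes1 and 13 of Heyl. Hey1 (chromosome 3, 8663359 to 8667038) had no listed region within 100 kb on either side, as was so for 10.6% of protein-coding genes. The nearest were 114.2 kb to the left (fold 4.61) and 117.0 kb to the right (fold 4.69). Hey2 (chromosome 10, 30832359 to 30842783, minus strand) had 1 region 17.1 kb away, beyond its 3′ end, with 78 tags in oil against 43 and a fold of 2.34. On the side of its start the nearest was 237.9 kb away. Of genes as long as Hey1, 20.2% had a region, and of those as long as Hey2, 37.8% did. For all 4 genes having no region was thus the more frequent state at that length. A gene without a region can be unmethylated in both libraries, can be methylated alike in both, can have gained signal in tamoxifen or can be poorly covered, and the list holds no value to choose among these.

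Numb, whose product is handed to only some daughter cells when satellite cells divide, had 1 region. The gene spans 127.9 kb of chromosome 12 (83794034 to 83921942, minus strand) and RefSeq lists 3 starts in it. The region, 83885284 to 83885493, lay between the outermost start and the next, 8.47 kb before the latter. It had 43 tags in oil against 10 in tamoxifen (fold 5.10, limits 2.79 to 12.6). Of 1013 genes of like length, 82.3% had 1 or more regions and the median was 2 (quartiles 1 and 5), so that Numb lay at the lower quartile. Its paralog Numbl, 23.7 kb long, also had 1 region (46 against 8 tags, fold 6.62).

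Other genes of the pathway were counted in 5 lists, of which 30 of 45 genes (66.7%) had a region, against 45.2% of all protein-coding genes, with no matching for gene length. All 5 remaining members of the Hes group (Hes2, Hes3, Hes5, Hes7 and Helt) had none. They are short, with a median of 3.60 kb, and no share for their own lengths was computed. Among genes as long as Hey1, at 3.68 kb, 20.2% had a region. With the 5 members described above, 1 of 10 genes of the Hes and Hey families had a region, the one Hes6 shares with Per2. Among genes as long as those 5 members, the share with a region ran from 18.6% (Hes6) to 45.6% (Heyl). At each of these lengths most genes had none. Of 12 nuclear cofactors, 9 had a region, with 49 regions in all and a median fold of 4.64.

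The same 45.2% stands behind the counts of the other lists. Of 10 receptors and ligands 7 had a region, 20 regions with a median fold of 4.76, the highest at the ligand gene Jag1 (9.04-fold). Of 11 genes that process or glycosylate the receptors 8 had one, with a median fold of 5.06 and the highest at Psen2, which encodes a catalytic subunit of gamma-secretase (8.55-fold, 138 against 20 tags, limits 5.64 to 15.3). Of 7 genes of trafficking and turnover 6 had one, with a median fold of 5.41 and the highest at Dtx1, an E3 ligase gene (9.16-fold, 78 against 10 tags, limits 5.28 to 22.2). The median folds of the 4 lists with regions, 4.64 to 5.41, lay above the 4.61 of all regions and below the upper quartile, 5.87. That of the 10 genes described here was 4.21 with Maml3 and 4.90 over the 8 regions outside it. Differences between the lists were not tested, and their genes differ in length.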

How the data were processed

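Methylated and non-methylated DNA of cultured mouse satellite cells was sequenced after MBD2 capture, with 1 library for each of 4 groups, per the labels' protocols. The submitters' processing notes name Trim Galore, HISAT2, MACS2 2.2.6 and mm10. The authors called regions with the oil alignment as treatment and the tamoxifen alignment as control, keeping 1 tag per position, extending tags to 201 bp, scaling the larger library to the smaller, with no regional background and a q cutoff of 1e-04, per the file headers. Direction was taken from that command and not from the list's name, in which tamoxifen comes first. The deposited pileup is a signal value, the extended oil tags over the summit. The deposited fold enrichment is a ratio. The headings of 2 deposited columns were lost, and they were read as −log10 p and −log10 q values of the authors' caller, which compare 2 libraries.

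Tamoxifen tags were computed from pileup and fold. They were whole within 0.02 tags in 97.5% of regions and in all 36 over the 10 genes. Recomputed −log10 p values matched the deposited values within 0.00017. That recomputation used the scaled tamoxifen value before rounding to whole tags. Folds are taken where oil was highest and so lean upward. All 10 genes were named by rule: of each, the regions with the highest fold, with most oil tags and near a start are described. The members and the gene lists were chosen with earlier results of these data known. The length ranges and the joining distance of Maml3 regions were chosen after values were seen. The gene of highest fold among the nuclear cofactors is not reported here. Overlap counting and intervals were tested on simulated data, the intervals without selection by summit or q limit. That test does not show how the intervals behave at selected regions. Python 3.11.15 with pandas 2.3.3 and scipy 1.17.1 was used.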

Additional observations from a re-analysis of the deposited data

How the results depend on the processing

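The numbers of genes and regions stayed within 1.5 times under the alternatives run. For the median fold only the range is given, as the counting limits belong to single regions. The number of the 10 genes with a region was 6 at q limits of 1e-06 and 1e-10, with 5000 bp on both sides and with unscaled tamoxifen tags, and 5 with the midpoint rule or the gene body alone, which drop the region Hes6 shares with Per2. The gene body alone also drops the region past the 3′ end of Maml2. The number of regions ranged from 30 (q limit 1e-10) to 36. The losses at the q limit of 1e-10 were all in Maml3, which kept 22, and the 3 regions lost with unscaled tags were too, leaving 25. The median fold ranged from 3.40 with unscaled tags to 4.49 at the q limit of 1e-10. The highest fold of each gene was unchanged at the q limit of 1e-10, which only drops regions. With unscaled tags it was lower, from 2.88 in Maml1 to 6.89 in Maml2, and within its counting limits. Unscaling lowers all folds nearly alike, so this reflects the width of the limits. With nothing added, the value is the tag ratio on which the limits are built, and it lies within them by construction. These settings thus do not test how stable the highest folds are. With the gene body alone, chosen after seeing the data, the highest fold of Maml2 was 3.94 in place of 8.73. That is below its limits of 4.77 to 24.2. Hes6 had no region there, and the other 4 genes kept their highest folds. No paired analysis was possible because each group has 1 library and no test was made. Leaving out a replicate was not possible for the same reason. Gains in tamoxifen were not analysed here, and depth limits what a missing region can show.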
